A study of Mus musculus with 8 samples.

Results

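Primary microglia, the immune cells that live in the brain, grow out of a mixed brain culture in which the other cell lineages of the brain are also present. The RNA of those other lineages that remained in the microglial libraries was followed here through 32 marker genes, chosen by their GENCODE mouse symbols from the 55385 genes of the count table: 8 of astrocytes, 9 of the oligodendrocyte lineage, 7 of neurons, 5 of fibroblasts and 3 of vessels. The microglia came from wild-type newborn C57BL/6J mice. Hippocampus and neocortex of several brains were pooled, and the microglia were shaken off the mixed culture and kept in new plates until 15 days in vitro. There were 4 control libraries, called untreated in the labels and PBS-treated in the methods of the study, and 4 libraries of cultures treated with IgG at 10 µg/ml for 24 h. Libraries that share a replicate number carry one date in the labels, so that each control library has an IgG partner and there are 4 pairs, although the labels do not say which step the date belongs to.

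A shaken-off microglial culture is enriched rather than pure. Astrocytes form the adherent layer on which microglia grow, and oligodendrocyte progenitors loosen from that layer under the same kind of shaking. Neurons of a newborn brain survive poorly in serum-containing medium, and fibroblasts and endothelial cells belong to meninges and vessels, of which the meninges were removed before culture. Microglia themselves engulf myelin and dead cells. In these bulk libraries fewer cells of a type and less RNA per cell cannot be told apart.

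Library totals were 21287816 to 23571277 counts in the control and 22000403 to 23703216 in the IgG libraries, and 3 counts, the approximate 95% upper limit for a count of 0 (counting error only), stood at 0.127 to 0.141 CPM (counts relative to the library total, here before scaling by TMM factors). Levels of one gene between libraries are given as CPM with TMM factors, and levels between genes as TPM, in which each count is also divided by exon length. Mitochondrial transcripts took 2.32 to 2.41% of the counts in all control libraries, and 4.85, 2.21, 5.59 and 1.97% in IgG libraries 1 to 4. IgG libraries 1 and 3 therefore stood apart from the other 6. Between the libraries of a pair, the log2 difference of a gene correlated with its GC content across 15638 genes at a Spearman rho of -0.44, -0.03, -0.44 and 0.35 in pairs 1 to 4, where genes are not independent replicates. The part of these shares and trends in the results was not tested unless a value is given.

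Of the 32 markers, those of the oligodendrocyte lineage had the highest sum, which depended on the genes chosen. Their summed level was 424 ± 85.6 TPM in control and 359 ± 118 TPM in IgG libraries (mean ± SD, n = 4), against 116 ± 7.83 and 99.4 ± 19.7 TPM for the astrocyte markers. Over the further lists described at the end the order was the reverse, with 493 ± 44.4 and 416 ± 74.8 TPM for 15 astrocyte genes against 308 ± 73.8 and 272 ± 69.0 TPM for 13 oligodendrocyte genes, but without Glul the astrocyte sums were 299 ± 56.2 and 237 ± 70.5 TPM. The neuron markers summed to 26.5 ± 3.75 and 20.7 ± 4.98 TPM. Fibroblast markers summed to only 1.13 ± 0.355 and 1.25 ± 0.244 TPM, and vessel markers to 0.407 ± 0.201 and 0.531 ± 0.124 TPM. These gaps also depended on the genes chosen. Over the further lists, neuron genes summed to 32.2 ± 6.08 and 29.2 ± 5.36 TPM. Fibroblast genes summed there to 28.6 ± 4.72 and 24.2 ± 3.3 TPM, and vessel genes to 31.8 ± 4.41 and 26.5 ± 0.882 TPM. On the same scale, 21 microglia markers summed to 14500 to 16900 TPM in the control and 13200 to 17000 TPM in the IgG libraries, among them C1qa and Tyrobp at a mean of 3480 and 2920 TPM. Among the microglia markers Siglech, at a mean of 0.0689 TPM, was at or near the floor, and the homeostatic markers P2ry12 and Tmem119 were at 6.96 and 5.43 TPM.

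**Figure D1:**
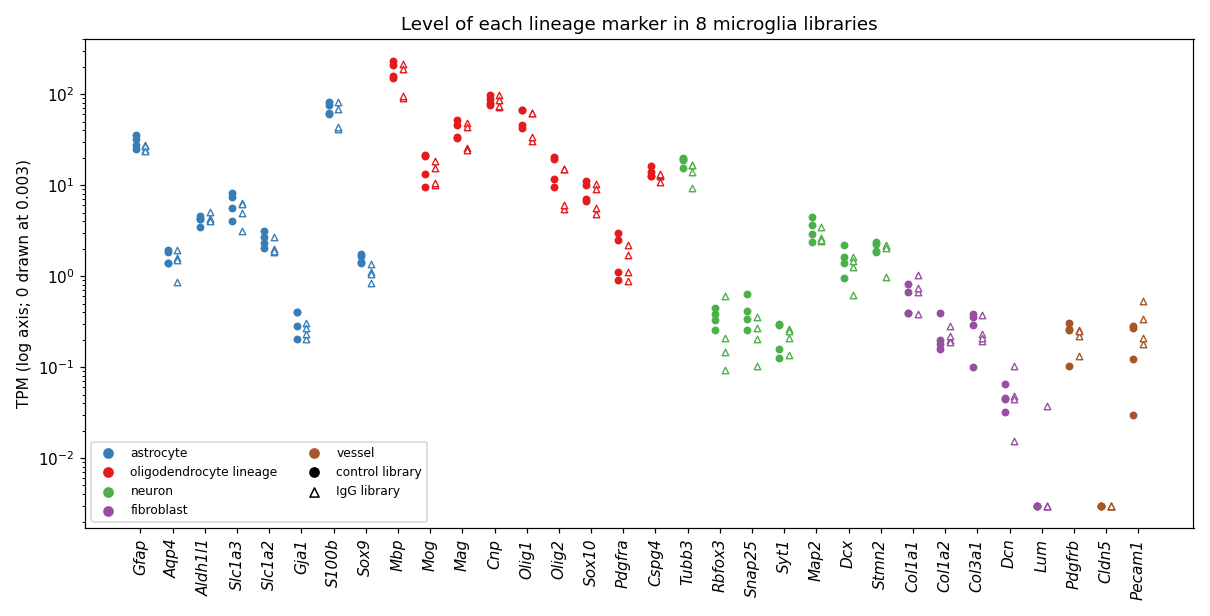
Level of each of the 32 markers in TPM (log axis) in every library, with filled circles for the 4 control and open triangles for the 4 IgG libraries and colours for the lineage. Mbp lies highest, at 91.9 to 231 TPM. Dcn, Lum and Cldn5 lie lowest by mean, with libraries listed at 0 (Lum and Cldn5) drawn near the bottom of the axis. The other fibroblast and vessel markers, at means of 0.223 to 0.641 TPM, lie near the neuronal markers Syt1 and Snap25, at 0.216 and 0.323 TPM.

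Within the oligodendrocyte lineage, Mbp and Cnp were highest. Mbp, myelin basic protein, was at a mean of 168 TPM over the 8 libraries, followed by Cnp, the 2′,3′-cyclic nucleotide phosphodiesterase of oligodendrocytes and their myelin, at 83.9 TPM. The transcription factor Olig1 came next at 51.1 TPM, above Mag, myelin-associated glycoprotein, at 38.4 TPM and Mog, myelin oligodendrocyte glycoprotein, at 15 TPM. The lineage factors Olig2 and Sox10 were at 12.8 and 8.03 TPM. The progenitor markers Cspg4, the NG2 proteoglycan, which pericytes also make, and Pdgfra, the receptor for PDGF-A, were at 13.2 and 1.67 TPM. Both mature and progenitor markers were thus present in every library.

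Most of these genes were ordered alike over the dates. Mbp was at 608, 919, 634 and 810 CPM in control libraries 1 to 4 and at 419, 856, 428 and 857 CPM in IgG libraries 1 to 4. All 4 libraries of replicates 2 and 4 were above all 4 of replicates 1 and 3, while the control and IgG groups overlapped. Olig2 followed the same order, with 11.6, 22.8, 14.1 and 23.9 CPM in the control and 7.45, 17.6, 8.13 and 20.1 CPM in the IgG libraries. Its mean over the 2 libraries of a date was 2.31-fold higher at the highest than at the lowest date. For Pdgfra, with 4.38, 11.7, 5.26 and 13.9 CPM in the control and 4.75, 10.2, 5.85 and 9.01 CPM in the IgG libraries, this ratio was 2.51.

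The other factors and myelin genes kept this order at smaller ratios. Olig1 was at 43.5, 68.0, 46.9 and 66.5 CPM in the control and 35.2, 62.0, 38.7 and 71.1 CPM in the IgG libraries, a ratio of 1.75 between the highest and the lowest date. Sox10, the factor that drives myelin genes, was at 10.4, 15.7, 9.73 and 14 CPM, and at 9.12, 14.5, 7.84 and 14.6 CPM with IgG. The lowest library of replicates 2 and 4 was above the highest of replicates 1 and 3 in each gene.

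Mag was at 66.8, 99.4, 64.3 and 86.3 CPM in the control and 55.7, 92.8, 52.3 and 94.3 CPM in the IgG libraries. Mog was at 7.89, 17.2, 10.9 and 16.5 CPM, and at 9.21, 14.7, 9.58 and 14 CPM with IgG. These myelin membrane proteins differed 1.65-fold and 1.87-fold between dates. Cnp, at 131, 167, 137 and 147 CPM in the control and 140, 167, 145 and 167 CPM in the IgG libraries, varied least, with a ratio of 1.23. Cspg4 alone departed from the order, with 72.8, 70.7, 79.3 and 89.6 CPM in the control and 80.8, 61.0, 82.8 and 84.5 CPM in the IgG libraries.

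In all, 8 of the 9 oligodendrocyte markers had all 4 libraries of replicates 2 and 4 above all 4 of replicates 1 and 3, an order that 5.61% of the 17537 genes tested had and that was noted after the values were seen, so that no test was made of it. Replicates 1 and 3 also held the IgG libraries of high mitochondrial share (4.85 and 5.59%), the part of which in this order was not tested. Of 13 further genes of the lineage, 7 had this order, among them Cldn11, a tight junction protein of myelin, at a mean of 46.8 TPM, and Mal, a membrane protein of myelin, at 15.8 TPM.

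**Figure D2:**
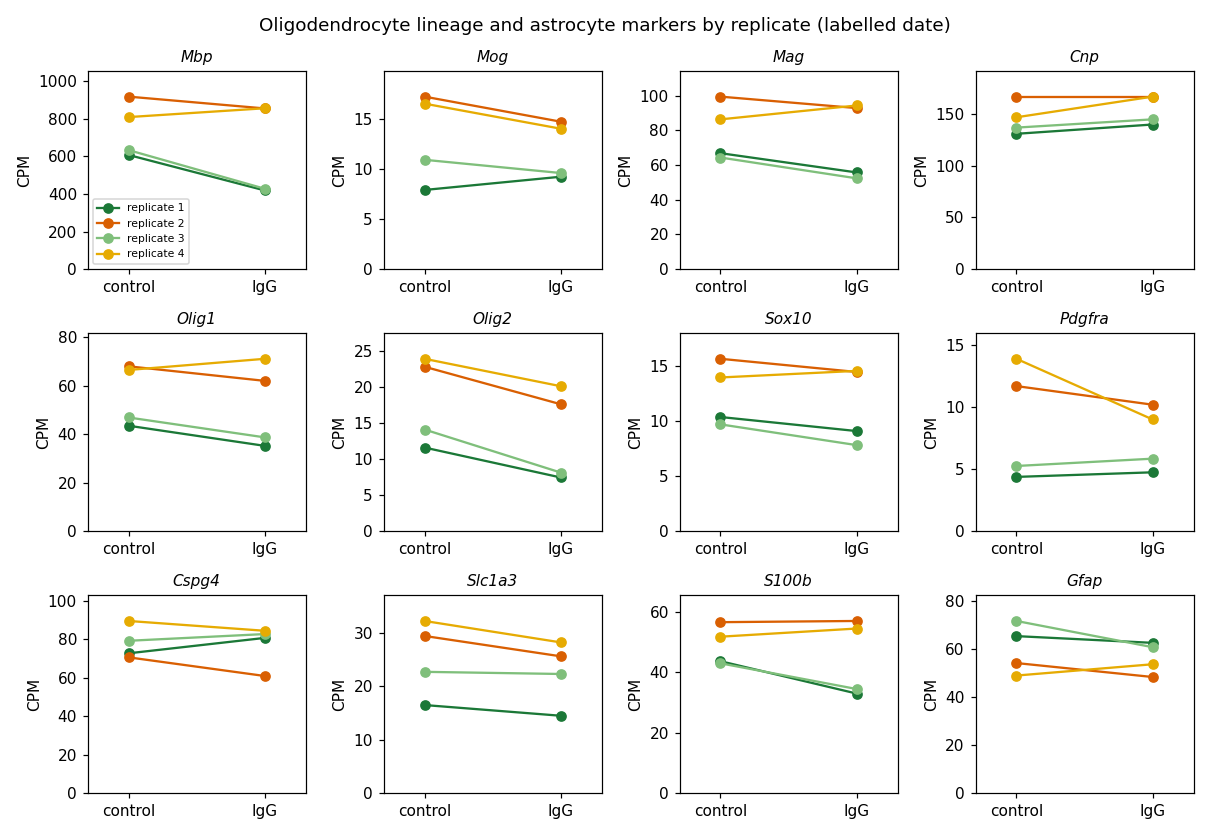
CPM of the 9 oligodendrocyte lineage markers and of Slc1a3, S100b and Gfap in control and IgG libraries, with a line joining the 2 libraries of each replicate (same labelled date). The lines of replicates 2 and 4 lie above those of replicates 1 and 3 in all panels but Cspg4 and Gfap, and for Gfap they lie below.

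The difference between dates was tested for every gene with an F-test of the 3 replicate coefficients beside the treatment (edgeR quasi-likelihood, Benjamini-Hochberg adjustment over 17537 genes). At an adjusted p under 0.05 it called 171 genes, 0.975% of those tested, and 1 of the 29 tested markers, which is 3.45%. The marker was Olig2, with an adjusted p of 0.0277 and all 8 libraries in the order given above. Without replicate 1, 2, 3 or 4 its adjusted p was 0.1, 0.146, 0.023 and 0.0426, so that the call was lost without either replicate 1 or replicate 2. Slc1a3, Olig1, Pdgfra and Mag came next with adjusted p-values of 0.0505, 0.058, 0.0704 and 0.0892 in the same edgeR test. The number of markers called depended on the tool, with 9 called by DESeq2 (3.06% of all genes tested), 10 by edgeR's likelihood ratio test (5.38% of all genes), 10 by the quasi-likelihood test with no filter on low counts (2.84%) and 2 by limma-voom (0.998%). After correction for trends on GC content and length, 6 markers were called by the edgeR test, against 2.22% of all genes, and Olig2 had an adjusted p of 0.006. Mobp, a myelin gene, and Bcan, the proteoglycan brevican, were called among the further marker genes, with adjusted p-values of 0.0209 and 0.0492 in edgeR.

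The stretches of 250 bases before the RefSeq start of 4 oligodendrocyte genes that shared the order of dates, and of the astrocyte gene Gfap, which had the reverse order, are given for comparison from RefSeq (GRCm38.p6), which held 20 of the 32 markers. They are written 5′ to 3′ on the strand of the gene, with capitals on the matches to either of 2 motifs, the E-box CANNTG of basic helix-loop-helix factors such as Olig1 and Olig2, which reads alike on both strands, and the SOX core ACAAT, searched on both strands and therefore also as ATTGT. No matches of the 2 motifs overlapped. Olig2 lies at chr16:91225457-91228677 on the plus strand in GENCODE, and Olig1 at chr16:91269772-91271933 on the same strand. The windows are chr16:91225300-91225549 (Olig2, plus), chr7:30914864-30915113 (Mag, minus), chr17:37023399-37023648 (Mog, minus), chr11:100574689-100574938 (Cnp, plus) and chr11:102897201-102897450 (Gfap, minus). GENCODE places the start of Olig2, Mag and Cnp inside the window shown and that of Gfap upstream of it, so that the Gfap window lies within the GENCODE gene.
Olig2: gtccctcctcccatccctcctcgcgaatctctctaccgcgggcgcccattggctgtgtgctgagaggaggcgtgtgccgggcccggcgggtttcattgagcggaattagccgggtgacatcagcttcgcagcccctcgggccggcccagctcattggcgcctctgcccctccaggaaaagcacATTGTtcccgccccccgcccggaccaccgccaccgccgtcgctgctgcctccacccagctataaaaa
Mag: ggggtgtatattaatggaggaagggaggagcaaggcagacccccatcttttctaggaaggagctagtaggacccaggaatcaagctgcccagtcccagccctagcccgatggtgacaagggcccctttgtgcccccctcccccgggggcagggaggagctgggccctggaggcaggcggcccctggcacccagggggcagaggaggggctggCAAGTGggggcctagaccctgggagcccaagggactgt
Mog: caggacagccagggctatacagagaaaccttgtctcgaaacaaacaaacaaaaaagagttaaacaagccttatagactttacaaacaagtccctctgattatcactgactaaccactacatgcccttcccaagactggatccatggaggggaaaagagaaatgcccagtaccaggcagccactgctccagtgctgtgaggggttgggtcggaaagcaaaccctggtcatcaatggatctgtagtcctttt
Cnp: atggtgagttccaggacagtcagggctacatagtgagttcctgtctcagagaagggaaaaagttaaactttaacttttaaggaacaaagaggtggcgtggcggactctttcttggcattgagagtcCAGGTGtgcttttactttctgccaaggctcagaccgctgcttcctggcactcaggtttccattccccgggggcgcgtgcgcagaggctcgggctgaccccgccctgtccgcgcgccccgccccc
Gfap: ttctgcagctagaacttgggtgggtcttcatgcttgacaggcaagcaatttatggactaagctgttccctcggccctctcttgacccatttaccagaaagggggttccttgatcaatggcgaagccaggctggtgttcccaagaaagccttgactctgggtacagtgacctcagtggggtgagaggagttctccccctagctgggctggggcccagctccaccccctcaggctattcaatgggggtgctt

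A single SOX core was found in the window of Olig2 and a single E-box in those of Mag and of Cnp, and neither in those of Mog and Gfap. Of 32841 promoters of this length, 66.2% held an E-box and 27.7% a SOX core. The GC content was 66.8% for Olig2, 66% for Mag, 57.2% for Cnp, 55.6% for Gfap and 46.8% for Mog, against a median of 52.4% over all promoters. No motif was thus found in all 4 of the windows whose genes shared the order of dates. A match is a string of letters and not evidence of binding.

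The astrocyte markers split between both orders. Slc1a3, the glutamate transporter GLAST, was at 16.5, 29.4, 22.7 and 32.2 CPM in the control and at 14.5, 25.6, 22.3 and 28.2 CPM in the IgG libraries, with replicates 2 and 4 above replicates 1 and 3 as in the oligodendrocyte genes. S100b, a calcium-binding protein of astrocytes that oligodendrocytes also make, was at 43.7, 56.6, 43.0 and 51.8 CPM, and at 33.0, 57.0, 34.5 and 54.5 CPM with IgG, and had the same order. It was the most abundant astrocyte marker per length, at a mean of 64.5 TPM.

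Gja1, the gap junction protein connexin 43, also had this order, with 1.00, 1.94, 1.39 and 1.93 CPM in the control and 1.1, 1.47, 1.26 and 1.46 CPM in the IgG libraries. Gfap, the intermediate filament of astrocytes, had the reverse, with 65.4, 54.2, 71.7 and 49.0 CPM in the control and 62.6, 48.4, 60.8 and 53.7 CPM in the IgG libraries. Aqp4, the water channel of astrocyte endfeet, was likewise lower in replicates 2 and 4, with 5.76, 4.1, 5.47 and 4.03 CPM in the control and 5.30, 4.41, 6.39 and 2.87 CPM with IgG. This reverse order was found in 5.65% of all genes tested. Neither Gfap nor Aqp4 differed between dates after adjustment (adjusted p of 0.481 and 0.477, edgeR).

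The other 3 astrocyte markers had no such order. Aldh1l1, a folate enzyme of astrocytes, was at 10.0, 9.05, 9.18 and 7.15 CPM in the control and 10.2, 8.91, 12.3 and 9.69 CPM in the IgG libraries. Slc1a2, the glutamate transporter GLT-1, was at 12.7, 16.5, 14.5 and 18.8 CPM, and at 13.0, 16.6, 14 and 13.1 CPM with IgG. Sox9, an astrocyte and progenitor transcription factor, was at 3.30, 2.75, 3.45 and 2.66 CPM in the control and at 2.47, 2.64, 2.32 and 1.87 CPM in the IgG libraries. It was the only marker whose groups did not overlap, all 4 IgG libraries being lower, which was the case for 1.76% of all genes tested, while no marker had all IgG libraries higher, as 2.28% of all genes did. Of 15 further astrocyte genes, 6 had replicates 2 and 4 above replicates 1 and 3, and the most abundant were Glul, glutamine synthetase, Sparcl1, an astrocyte-secreted matrix protein, and Fabp7, a fatty acid-binding protein of glial progenitors, at 186, 84.5 and 70.5 TPM. Glul, at 265 to 323 CPM in the control and 276 to 319 CPM in the IgG libraries, was mixed over the dates, whereas Sparcl1 and Fabp7 followed the order of Slc1a3.

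Among neuronal markers, the cytoskeletal genes were highest. Tubb3, the neuronal beta-tubulin, was at a mean of 16.3 TPM, and at 14, 17.0, 16.9 and 17.3 CPM in the control and 9.26, 14.5, 13.8 and 16.5 CPM in the IgG libraries. Map2, the dendritic microtubule-associated protein, which was at 3.03 TPM, had 18.6, 27.9, 22.5 and 33.7 CPM in the control and 21.4, 26.4, 22.9 and 22.0 CPM with IgG. The lowest Tubb3 values of either group were both in replicate 1.

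Dcx, doublecortin of migrating young neurons, was at 5.72, 8.33, 9.81 and 12.8 CPM in the control and 4.28, 9.60, 9.92 and 8.51 CPM in the IgG libraries. Stmn2, the growth cone protein SCG10, was at 4.97, 6.26, 5.09 and 5.87 CPM, and at 2.93, 5.66, 6.53 and 6.10 CPM with IgG. Both were lowest in replicate 1 in either group. None of the 7 neuronal markers had replicates 2 and 4 all above replicates 1 and 3, and none was called between dates by edgeR's quasi-likelihood test with the filter on low counts, where Dcx had the lowest adjusted p, 0.226. Dcx was called by edgeR's likelihood ratio test (adjusted p of 0.00534), by DESeq2 (0.0413), with no filter (0.00839) and after GC and length correction (0.0444), and Map2 after that correction (adjusted p of 0.0263).

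Markers of mature synapses and neuronal nuclei were scarce. Snap25, a SNARE protein of synaptic release, was at 0.835, 1.08, 1.35 and 2.01 CPM in the control and 0.372, 1.1, 0.967 and 0.728 CPM in the IgG libraries, which rest on 8 to 47 counts a library. Rbfox3, the nuclear antigen NeuN, at 6 to 38 counts, and Syt1, the calcium sensor of vesicle release, at 12 to 27 counts, were both below a mean of 1 CPM in each group. Of 13 further neuronal genes, Gap43, a growth cone protein, Elavl3, a neuronal RNA-binding protein, and Syn1, synapsin I, were highest at 11.9, 7.03 and 2.27 TPM.

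Fibroblast markers were scarce. Col1a1, the alpha-1 chain of collagen I, was at 2.13, 1.22, 1.22 and 2.48 CPM in the control and 1.35, 2.08, 3.63 and 2.59 CPM with IgG. Its partner chain Col1a2 was at 2.34, 1.17, 0.926 and 1.03 CPM, and at 1.35, 1.64, 1.26 and 1.46 CPM with IgG. Col3a1, of collagen III, was at 1.79, 1.62, 0.463 and 1.33 CPM, and at 1.21, 1.73, 1.02 and 1.09 CPM with IgG.

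The control and IgG libraries overlapped in each of these collagens. The proteoglycans Dcn, decorin, with 1 to 7 counts a library, and Lum, lumican, with 1 count in IgG library 2 and 0 in the other 7, were too low to test. Among 14 further fibroblast genes the highest were Postn, periostin, at 19.4 TPM, and Islr and Serpinf1 at 2.62 and 1.20 TPM. Postn was at 67.2 to 104 CPM in the control and 67.7 to 108 CPM in the IgG libraries, and its 19.4 TPM compare with 0.641 TPM for Col1a1.

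Of the 32 markers, those of vessels had the lowest sum, which depended on the genes chosen. Over the further lists, vessel genes summed to 31.8 TPM in control and 26.5 TPM in IgG libraries. Fibroblast genes were lower there in mean, at 28.6 and 24.2 TPM. In the control libraries the SDs, 4.41 TPM for vessel and 4.72 TPM for fibroblast genes, were larger than this gap. Most of each sum came from 1 gene, Flt1 at 21.9 and 17.5 TPM and Postn at 21.1 and 17.7 TPM in control and IgG libraries. Cldn5, the claudin of the endothelial barrier, had 0 counts in all 8 libraries, with the same upper limit of 0.127 to 0.141 CPM a library. Pecam1, CD31 of endothelial cells, which some blood cells also carry, was at 0.835, 0.360, 0.800 and 0.0857 CPM in the control and 0.605, 0.994, 1.79 and 0.683 CPM in the IgG libraries. The lowest of these values stands for 2 counts and the highest for 37. Pdgfrb, the PDGF receptor of pericytes, had 6 to 19 counts a library. Of 16 further vessel genes, Flt1, the VEGF receptor 1 that macrophages can also carry, stood highest at 19.7 TPM, followed by Tagln, of smooth muscle, at 4.23 TPM and Kdr, the endothelial VEGF receptor 2, at 1.73 TPM.

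**Figure D3:**
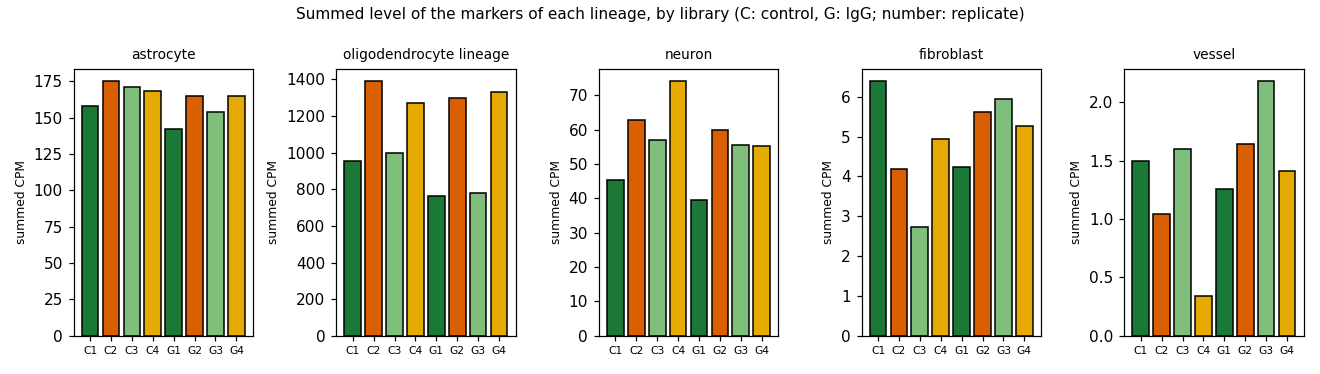
Summed CPM of the markers of each lineage in each library (C for control, G for IgG, with the replicate number and one colour per replicate, each panel with its own axis from 0). The oligodendrocyte sums of replicates 2 and 4, 1270 to 1390 CPM, lie above those of replicates 1 and 3, 762 to 1000 CPM, in both groups, and the vessel sums stay at or below 2.18 CPM.

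The change with IgG was tested over all genes with edgeR's quasi-likelihood test, and 29 of the 32 markers had enough counts to be tested. None of the 29 had an unadjusted p under 0.05 (background over all genes 2.18% lower and 4.83% higher), and none met the criterion of the study, an unadjusted p under 0.01 with an absolute log2 fold change above 0.5 (0.262% of all genes lower and 0.582% higher). DESeq2, limma-voom and edgeR's likelihood ratio test also gave 0 markers by either rule. The smallest adjusted p among the markers was 0.692, and 0 of all 17537 genes passed adjustment, where 1230 had an unadjusted p under 0.05. The estimates lay below 0 for 22 markers and above 0 for 7, with a median log2 fold change of -0.11 against 0.00 over all genes tested. When libraries were scaled by their totals alone, the medians were -0.20 and -0.09.

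By lineage, the median log2 fold change was -0.13 over 8 astrocyte, -0.11 over 9 oligodendrocyte and -0.18 over 7 neuronal markers. It was 0.07 over the 3 tested fibroblast markers, and -0.02 with scaling by library totals, and 0.49 over the 2 tested vessel markers. These medians depended on single libraries. Leaving out 1 library moved the oligodendrocyte median from -0.24 (without IgG library 2) to -0.01 (without control library 2), the neuronal one from -0.33 (without control library 1) to -0.04 (without control library 4) and the astrocyte one from -0.22 (without IgG library 2) to -0.08 (without IgG library 1). The fibroblast median ran from -0.08 (without control library 3) to 0.46 (without control library 1) and the vessel median from 0.18 (without control library 4) to 0.71 (without control library 3). The ratio of the summed TPM of IgG to control libraries was 0.846 for the oligodendrocyte, 0.853 for the astrocyte and 0.78 for the neuronal markers, and 1.10 and 1.31 for fibroblast and vessel markers. With replicates 2 and 4 only, a choice made after the data were seen, these ratios were 0.925, 0.942, 0.827, 1.13 and 2.03. TPM were computed without TMM factors, so that the ratios are not on the scale of the medians. Over all libraries the 21 microglia markers had a ratio of 0.961 on the TPM scale. The IgG libraries with the lowest oligodendrocyte and astrocyte sums were libraries 1 and 3, those with mitochondrial shares of 4.85 and 5.59%. The 20 tested microglia markers had a median log2 fold change of 0.16.

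With the replicate as a block, which compares libraries of the same date, Olig2 and Tubb3 had an unadjusted p under 0.05, both lower with IgG, against 3.85% of all genes lower and 6.35% higher. Olig2 had a log2 fold change of -0.50 ± 0.12 (SE, edgeR with unadjusted p = 0.00376 and adjusted p = 0.235) and was lower in all 4 pairs, by -0.63, -0.38, -0.79 and -0.25 in pairs 1 to 4 on the log2 scale. Without the block the estimate was -0.44 ± 0.35 (SE, unadjusted p = 0.246). With the block and a correction for GC and length trends it was -0.40 (unadjusted p = 0.00168, edgeR). With replicates 2 and 4 only, a choice made after the data were seen, Olig2 had -0.31 (unadjusted p = 0.0459, edgeR, without the block). In that split Pdgfra and Map2, lower, and Pecam1, higher, also had an unadjusted p under 0.05 in edgeR. The share of all genes in the split is not given here. No marker met the criterion of the study with the block, as 0.342% of all genes did lower and 1.48% higher, and none passed adjustment, as 0.393% of all genes did. Without replicate 4, Olig2 met the criterion in the blocked test at -0.60 (unadjusted p = 0.00161, edgeR).

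Tubb3 had a log2 fold change of -0.28 ± 0.12 (SE, unadjusted p = 0.0469, adjusted p = 0.486 in edgeR with the block), and -0.17 (unadjusted p = 0.133, edgeR) once GC and length trends were corrected as well. Besides Olig2 and Tubb3, Slc1a3 and Sox9 were lower in all 4 pairs, so that 4 of the 29 tested markers were, compared with 8.84% of all genes. Sox9 had -0.38 ± 0.18 (SE) without the block (unadjusted p = 0.0622, edgeR) and the same estimate with it (unadjusted p = 0.07), and an unadjusted p of 0.0283 with scaling by library totals. The Sox9 differences in the pairs were -0.41, -0.06, -0.55 and -0.49. Snap25 had the lowest estimate, -0.71 ± 0.38 (SE, unadjusted p = 0.0939, edgeR), with pair differences of -1, 0.05, -0.44 and -1.36 on low counts. With the block it was at -0.72 (unadjusted p = 0.0574, edgeR), and at -0.78 (unadjusted p = 0.0333) once GC and length trends were corrected as well. With the block and without replicate 2 it was at -1.01 (unadjusted p = 0.0266, edgeR).

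Mbp showed how far the pairs differed. Its differences were -0.53, -0.10, -0.57 and 0.08 in pairs 1 to 4, with an estimate of -0.21 ± 0.26 (SE, unadjusted p = 0.446, edgeR) and of -0.27 ± 0.13 (unadjusted p = 0.065) with the block. The larger negative differences were those of pairs 1 and 3, whose IgG libraries had the higher mitochondrial share, the part of which was not tested. In 9 of the 29 tested markers the differences of pairs 1 and 3 both lay below those of pairs 2 and 4, against 30.3% of all genes tested, a share near that of the markers. This order was noted after the values were seen. The 9 included 5 of the 9 oligodendrocyte lineage markers, Mbp, Mag, Olig1, Olig2 and Sox10, and otherwise S100b, Tubb3, Col1a2 and Pecam1. For Olig1 and Sox10 the estimate moved from -0.15 and -0.12 with the block to 0.02 and 0.05 when GC and length trends were corrected as well. Markers without this order included Mog, at 0.22, -0.22, -0.19 and -0.24, Map2, at 0.20, -0.08, 0.03 and -0.62, and Pdgfra, at 0.11, -0.19, 0.15 and -0.62.

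Few markers lay above 0. Cnp was 0.10 ± 0.11 (SE, unadjusted p = 0.384, edgeR), Aldh1l1 0.22 ± 0.15 (unadjusted p = 0.157, edgeR) and Col1a1 0.46 ± 0.35 (unadjusted p = 0.218, edgeR). Pecam1 had the highest estimate, 0.96 ± 0.56 (SE, unadjusted p = 0.119, edgeR), and 1.03 ± 0.46 (unadjusted p = 0.0555) with the block. Without replicate 1, whose pair difference was -0.41 against 1.27, 1.08 and 2.15 in the others, the blocked estimate was 1.59 (unadjusted p = 0.00456, edgeR) and met the criterion, at the low counts given above. Apart from Olig2, Tubb3, Sox9 and Snap25, described above, the other tested markers lay between -0.32 (Rbfox3) and 0.12 (Syt1). Their unadjusted p-values from edgeR ran from 0.378 (Slc1a2) to 0.96 (Pdgfrb). Rbfox3 was at -1.04 (unadjusted p = 0.0179, edgeR) without IgG library 2 and at -1 (unadjusted p = 0.0385, edgeR) without replicate 2.

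**Figure D4:**
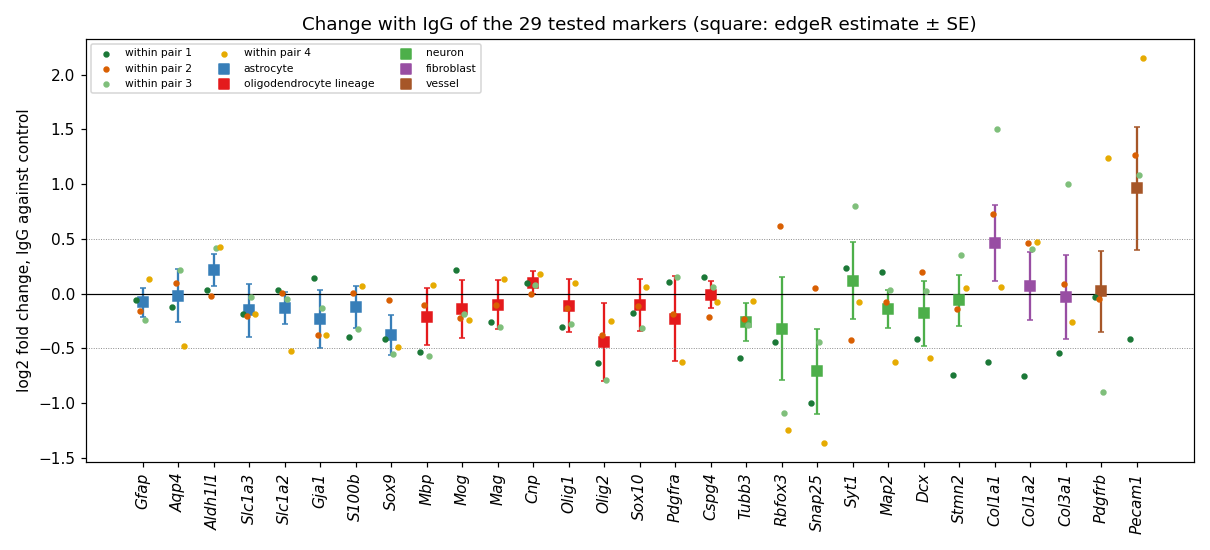
Log2 fold change of IgG against control for the 29 tested markers, as edgeR's estimate without the block (square, bars ± SE) and as the difference within each of the 4 pairs (points), with dotted lines at an absolute log2 fold change of 0.5. Most estimates lie between the dotted lines, Snap25 lies below them at -0.71 and Pecam1 above at 0.96, and the points of the low-count neuronal, fibroblast and vessel markers spread most.

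Further marker genes of the same lineages were read in the same way. The median log2 fold change was -0.13 over 14 tested astrocyte genes, with 12 below and 2 above 0, -0.04 over 11 oligodendrocyte genes, 8 below and 3 above, and 0.08 over 11 neuronal genes, 4 below and 7 above. It was -0.10 over 9 fibroblast genes, -0.13 over 7 vessel genes and -0.37 over 4 genes of ependyma and choroid plexus. Of these 56 tested genes, 2 had an unadjusted p under 0.05 without the block, Ttr and Nes, both lower (2.18% of all genes lower and 4.83% higher). With the block there were 5, of which 4 were lower, Ttr, Nes, Sparcl1 and Elavl3, and 1 was higher, Cdh5 (3.85% of all genes lower and 6.35% higher). Sparcl1 had -0.28 ± 0.09 (SE, unadjusted p = 0.018, adjusted p = 0.403 in edgeR with the block) and Elavl3 -0.28 ± 0.09 (unadjusted p = 0.0176, adjusted p = 0.4), each lower in all 4 pairs.

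Ttr, transthyretin, which choroid plexus epithelium secretes, was at 41.4, 32.1, 36.8 and 38.4 CPM in the control and at 21.4, 21.6, 17.8 and 32 CPM in the IgG libraries, with no overlap between the groups. It fell with a log2 fold change of -0.67 ± 0.17 (SE, unadjusted p = 0.00233, adjusted p = 0.643, edgeR), which met the criterion of the study, and of -0.70 with the block (adjusted p = 0.111). At a mean of 52.2 TPM it was the highest of the 8 ependymal and choroid plexus genes, and the next were Rarres2, the precursor of chemerin, and Folr1, the folate receptor, at 7.23 and 1.01 TPM. Nes, nestin of neural progenitors, was at 72.6, 98.4, 80.7 and 95.9 CPM in the control and 36.8, 69.5, 47.5 and 84.6 CPM in the IgG libraries, lower with IgG in each pair while the groups overlapped. Its log2 fold change was -0.54 ± 0.23 (SE, unadjusted p = 0.0433, edgeR), and -0.60 ± 0.13 with the block (unadjusted p = 0.00187, adjusted p = 0.16), where it met the criterion. The differences in pairs 1 to 4 were -0.95, -0.57, -1.04 and -0.26 for Ttr and -0.98, -0.50, -0.76 and -0.18 for Nes, larger in pairs 1 and 3, whose IgG libraries had mitochondrial shares of 4.85 and 5.59%, the part of which was not tested. With GC and length trends corrected beside the block, the adjusted p was 0.0266 for Ttr and 0.0389 for Nes in edgeR.

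Cdh5, the endothelial cadherin, was at 1.25, 0.766, 1.31 and 0.257 CPM in the control and at 2.28, 1.38, 2.76 and 0.592 CPM in the IgG libraries, higher with IgG in each pair. It had a log2 fold change of 0.97 without the block (unadjusted p = 0.0963, edgeR) and of 0.98 ± 0.24 with it (unadjusted p = 0.00329, adjusted p = 0.221), which met the criterion. These values rest on 6 to 57 counts a library. Of the 7 tested further vessel genes, 5 lay below 0 and 2 above without the block.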

How the data were processed

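The authors deposited raw read counts, as whole numbers by Ensembl identifier, for 4 control and 4 IgG libraries. They made them from reads aligned to GRCm38 with HISAT2 2.2.1 and, per the submitters' processing notes, counted with featureCounts. The notes also name SAMtools 1.12, Picard 2.26.3 and edgeR 3.36.0. The annotation, the use of strand and the handling of reads with several alignments are not given in the sources used here, so that genes that overlap another gene or have near-identical copies are uncertain. Gene symbols, lengths of merged exons and GC percentages were read from GENCODE M21, in which were found 55144 of the 55385 identifiers.

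The markers and the further lists were chosen with earlier results of these data known, and lists were described by counts and medians without a test. Counts were scaled with TMM, filtered with filterByExpr (17537 genes) and compared by group alone, the authors naming no block, in edgeR 4.0.16 (quasi-likelihood, R 4.3.3). P-values were adjusted by Benjamini-Hochberg over all genes tested. These fits were tested on simulated data with known changes. Differences within a pair used log2 CPM with a prior count of 2, and TPM were computed from counts and exon length without TMM factors. Values in every library are given for markers with a mean of at least 1 CPM in either group or with a call, and further marker genes were named if they met a call rule for IgG or were among the 3 highest of their list in TPM. Genes of the further lists that this rule names but the text does not are not reported here. Mobp and Bcan, named for their date call, and Aif1 and Fcrls were chosen after their values were seen.

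Samples were taken as paired by replicate number, since both libraries of a number bear one date in the labels. Deviations from the group means correlated across 15668 genes at 0.41, 0.33, 0.26 and 0.32 within a number, and at -0.34 to 0.20 between numbers. No 2 libraries of a group agreed within sampling noise, with a chi-square per degree of freedom of at least 5.00. Alternatives were the block, GC and length correction (lowess, span 0.3), other scalings and filters, DESeq2 1.42.0, limma-voom 3.58.1, edgeR's likelihood ratio test and the omission of libraries or pairs.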

Additional observations from a re-analysis of the deposited data

Results flagged for a closer look

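In 58 groups of 4 libraries, 2 held a library that stood apart from the other 3 in CPM, where chance gives about 1 group in 20. Cspg4, the NG2 proteoglycan of oligodendrocyte progenitors and pericytes, was at 61.0 CPM in IgG library 2 against 80.8 to 84.5 CPM in the other IgG libraries. Tubb3, the neuronal beta-tubulin, was at 14 CPM in control library 1 against 16.9 to 17.3 CPM in the other control libraries, and IgG library 1 of the same date was also the lowest of its group. The part of the date or of the library preparation in either value was not tested.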

How the results depend on the processing

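The sign of the estimate held under every alternative for 12 of the 29 tested markers, Olig2, Mbp, Cnp, Sox9, Tubb3, Snap25, Aldh1l1, Slc1a2, Gja1, Rbfox3, Col1a1 and Pecam1. Of 808 values under the alternatives 74 had the other sign, all of them from the other 17, which had an estimate of at most 0.23 in size. In every change named here the cause was not tested. The number of markers with an unadjusted p under 0.05 was 0, and 2 with the replicate block, 2 with the block and the GC and length correction, 1 each with library totals, upper quartile scaling or at least 10 counts in every library (Sox9 each time), and 4 with replicates 2 and 4 only. It was 0 to 2 when libraries or pairs were left out, and with the block 3, 3, 1 and 5 without replicates 1 to 4. Over all genes the share was 2.18% lower and 4.83% higher in the main fit, and 3.85% and 6.35% with the block. Shares under the other settings are not given here, so that these counts are not a result about the markers. The number meeting the criterion of the study stayed 0 but for 1 with the block without replicate 1 (Pecam1) and 1 with the block without replicate 4 (Olig2). Markers called between dates numbered 1 (0.975% of all genes tested). They numbered 2 with library totals, upper quartile scaling, the filter of 10 counts or limma-voom (0.821, 0.901, 0.899 and 0.998% of all genes). With the GC and length correction 6 were called (2.22%), and with DESeq2 9 (3.06%). The likelihood ratio test and no filter gave 10 each (5.38 and 2.84%). Without replicates 1 to 4 they numbered 0, 0, 3 and 4 (0.732, 0.0342, 1.04 and 0.444%).

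With the block Col3a1 was at 0.02, with the block and the GC and length correction Olig1 was at 0.02, Sox10 at 0.05, Cspg4 at 0.11 and Col3a1 at 0.01, and with that correction alone Olig1 was at 0.00, Sox10 at 0.04 and Cspg4 at 0.12. Library totals gave -0.02 for Col1a2 and -0.07 for Pdgfrb, upper quartile scaling -0.01 for Pdgfrb, and limma-voom 0.11 for Col3a1. Replicates 2 and 4 alone gave 0.04 for S100b, 0.01 for Mag and -0.26 for Syt1. With the block and 1 pair left out, Stmn2 was at 0.10 and Col3a1 at 0.24 without replicate 1, Cspg4 at 0.05 and Col3a1 at 0.00 without replicate 2, Syt1 at -0.12 without replicate 3, and Aqp4 at 0.06, Pdgfra at 0.01, Map2 at 0.04, Col3a1 at 0.11 and Pdgfrb at -0.35 without replicate 4. With a library or a pair left out and no block, the estimates ran from -0.18 to 0.01 for Gfap, -0.20 to 0.16 for Aqp4, -0.31 to 0.02 for Slc1a3, -0.26 to 0.01 for S100b, -0.32 to 0.02 for Mog, -0.23 to 0.03 for Mag, -0.30 to 0.04 for Olig1, -0.24 to 0.04 for Sox10, -0.46 to 0.07 for Pdgfra, -0.06 to 0.09 for Cspg4, -0.14 to 0.33 for Syt1, -0.27 to 0.03 for Map2, -0.35 to 0.04 for Dcx, -0.22 to 0.15 for Stmn2, -0.08 to 0.49 for Col1a2, -0.32 to 0.19 for Col3a1 and -0.34 to 0.34 for Pdgfrb. The replicate block changed no other call among the markers. Fibroblast and vessel markers rest on few counts.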

Other observations

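Of the 21 microglia markers, those of the cells the cultures were grown for, 20 were tested. Their median log2 fold change was 0.16, and 0.14 with the block. Without the block 16 lay above and 4 below 0, among the latter Trem2 at -0.09 and Tyrobp at -0.15. In that fit 3 microglia markers met the criterion of the study, all higher with IgG, against 0.582% of all genes. With the block 2 of them met it, against 1.48% of all genes, and Tmem119 did not (unadjusted p = 0.0128, edgeR). Aif1, the microglial protein Iba1, was at 94.8, 72.1, 91.0 and 56.4 CPM in the control and 141, 118, 132 and 108 CPM in the IgG libraries, so that the groups did not overlap. Its log2 fold change was 0.67 ± 0.16 (SE, edgeR), with an adjusted p of 0.615 without the block and 0.0331 with it. Fcrls, an Fc receptor-like protein of mouse microglia, had 0.83 ± 0.20 (SE) with adjusted p-values of 0.634 and 0.0329 in edgeR, and Tmem119, a homeostatic microglia marker, 0.54 ± 0.15 (SE) with 0.692 and 0.367. With GC and length trends corrected beside the block, the adjusted p was 0.0018 for Aif1, 0.00845 for Fcrls and 0.0409 for Tmem119 in edgeR, and Tmem119 then had a log2 fold change of 0.66.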
